A study of Homo sapiens with 8 samples.

Results

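The comparison set cells treated with sorafenib and dipyridamole together against control-treated cells, in 2 lines made from SK-Hep1. It used 4 of the 8 libraries of the series: mock cells with both drugs and with control treatment, and cells with ectopic SLC29A2 (called SLC29A2 cells below) with both drugs and with control treatment. The libraries were chosen by their labels alone. The other 4 libraries came from the same 2 lines given sorafenib or dipyridamole alone. SK-Hep1 is an established human line derived from a liver tumour and is known for endothelial-like rather than hepatocyte-like features. Each condition had 1 library, the labels state neither drug doses nor exposure times, and nothing says whether a line is 1 clone.

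Sorafenib is an oral kinase inhibitor that blocks RAF kinases and the receptors for VEGF and PDGF, and it is a standard treatment of advanced hepatocellular carcinoma. Dipyridamole blocks equilibrative nucleoside transporters, which carry nucleosides across the plasma membrane, and it also inhibits cyclic nucleotide phosphodiesterases, the enzymes that degrade cAMP and cGMP. SLC29A2 encodes ENT2, a member of that transporter family. Proliferating cells draw on nucleosides taken up from the medium and on their own synthesis of nucleotides to copy DNA.

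Expression was given as FPKM, a fragment count scaled for gene length and for library depth, and the test covered 14045 genes that averaged 1 FPKM or more across these 4 libraries. A difference is the mean of the 2 within-line differences (both drugs minus control) on the log2(FPKM + 1) scale, which understates the change of weakly expressed genes. Errors are standard errors from limma fitted to all 8 libraries, in which the single-drug libraries helped to estimate the spread, and p-values are limma's, adjusted by the Benjamini-Hochberg method over all genes tested. With 1 library per condition these p-values measure only the spread between these libraries, which may be technical. That spread is what line and treatment leave over, so it includes any difference between the lines in their response to the drugs. Genes with such a difference pass less readily. Genes are said to rise or fall only where the adjusted p was under 0.05.

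The libraries held 14.1 to 16.7 M fragments in genes (M for mega). SLC29A2 itself, checked first, stood at 7.81 FPKM in control-treated and 7.74 FPKM in double-treated mock cells, against 1476 FPKM and 2025 FPKM in SLC29A2 cells, as labelled. Its mean difference was 0.22 ± 0.25, which did not pass the test (adjusted p = 0.503). Hepatocyte markers were nearly absent apart from SERPINA1: their 8 genes summed to 1.75 to 5.64 FPKM in any library, and APOB and TTR were at 0 throughout. SERPINA1 made up most of that sum. It went from 2.20 FPKM in mock and 2.04 FPKM in SLC29A2 cells to 4.01 FPKM and 3.60 FPKM with both drugs. Of 9 endothelial markers only 2, ENG and ESM1, stayed above 1 FPKM in every library, and they made up nearly all of the list's sum. That sum was 101 to 112 FPKM with control treatment and 56.8 to 61.6 FPKM with both drugs. VWF went the other way, from 0.34 FPKM in mock and 0.32 FPKM in SLC29A2 cells to 1.54 FPKM and 1.66 FPKM. TIE1 went from 2.36 FPKM and 1.63 FPKM to 0.90 FPKM and 1.78 FPKM. PECAM1, CDH5, KDR, TEK and CLDN5 were at 0.26 FPKM or less in every library. The epithelial keratin-led list summed to 2422 to 2814 FPKM with control treatment and 778 to 1095 FPKM with both drugs. KRT8 and KRT18 carried that change. KRT19 went from 67.9 FPKM in mock and 31.2 FPKM in SLC29A2 cells to 60.5 FPKM and 63.8 FPKM. MUC1 went from 33.4 FPKM and 47.7 FPKM to 44.7 FPKM and 18.5 FPKM. CLDN4 went from 0.05 FPKM and 0.20 FPKM to 1.13 FPKM and 1.24 FPKM. EPCAM and CDH1 were at 0.34 FPKM or less in every library. The mesenchymal list summed to 1191 to 1377 FPKM with control treatment and 1096 to 1098 FPKM with both drugs. The leukocyte list summed to no more than 3.44 FPKM in any library. Whether a shift in the makeup of the cultures accompanied these changes was not tested. In bulk samples fewer cells of a type and less RNA per cell cannot be told apart.

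Of the 14045 genes, 5476 differed (39%): 3590 were higher (25.6%) and 1886 lower (13.4%) with both drugs. All 5476 moved in the same direction in both lines, but the test itself fixed this. Opposite differences count as spread, so a gene with them could not pass at this threshold. Counts for the gene lists below are to be read against the shares of 25.6% higher and 13.4% lower. A change of at least 2-fold in each line was met by 1450 of the 5476 (10.3% of genes tested), 974 higher (6.93%) and 476 lower (3.39%). The median difference over all genes was 0.17, with 0.26 in mock cells and 0.08 in SLC29A2 cells, so that differences are best read against that shift. When libraries were rescaled by size factors the median fell to 0.01 and the share of higher among called genes moved from 65.6% to 48.7%, with 2612 higher and 2749 lower. The count was 3024 without the control-treated mock library, 3090 without the control-treated SLC29A2 library and 3606 without the double-treated mock library.

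**Figure D1:**
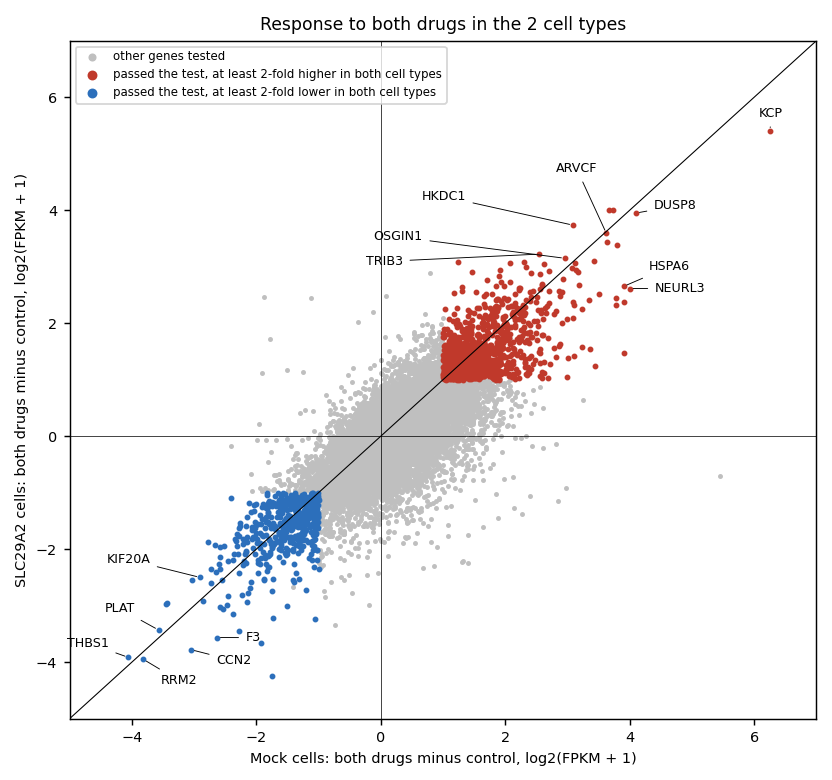
Each point is 1 of the 14045 genes tested; the horizontal axis gives the difference between both drugs and control in mock cells and the vertical axis the same in SLC29A2 cells, both in log2(FPKM + 1), with the line of equal response drawn. Red and blue points are the 974 genes at least 2-fold higher and the 476 at least 2-fold lower in both lines that passed the test; KCP lies at the far upper right, and THBS1 and RRM2 at the far lower left.

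The protein-coding gene with the largest rise was KCP (chr7:128862451-128910719 on GRCh38, minus strand), which encodes a secreted modulator of BMP signalling. It was at 0.72 FPKM in mock and 1.35 FPKM in SLC29A2 control cells, and at 130 FPKM and 98.4 FPKM with both drugs, a difference of 5.83 ± 0.24 (adjusted p = 0.000109). With sorafenib alone KCP was at 2.74 FPKM and 2.95 FPKM, and with dipyridamole alone at 8.30 FPKM and 5.73 FPKM. KCP overlaps ATP6V1FNB on the opposite strand, which also rose, by 3.02 ± 0.21. On that strand KCP also overlaps ATP6V1F, at 58.5 FPKM and 49.1 FPKM with control treatment and 91.1 FPKM and 84.9 FPKM with both drugs. FLNC-AS1 overlaps KCP on its own strand. Since the counting is not stated to use strand, the reads of these genes cannot be told apart.

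DUSP8, a phosphatase that inactivates JNK and p38 kinases, went from 2.18 FPKM in both control libraries to 53.5 FPKM in mock and 48.1 FPKM in SLC29A2 cells, a difference of 4.02 ± 0.17 (adjusted p = 0.000109). ARVCF, a catenin of the p120 family, went from 7.10 FPKM and 6.61 FPKM to 98.9 FPKM and 90.5 FPKM (3.61 ± 0.12, adjusted p = 6.08e-05). HKDC1, a hexokinase, stood at 6.5 FPKM and 5.78 FPKM with control treatment and at 62.9 FPKM and 89.2 FPKM with both drugs (3.41 ± 0.20). In each of these genes both double-treated libraries lay far above both control libraries, which follows from their choice as the largest rises. DUSP8, ARVCF and HKDC1 each overlap an annotated gene on the other strand, so that some of their reads could belong to those genes.

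Of the other protein-coding genes among the 12 largest rises, OSGIN1, an oxidative stress-induced gene, went from 17.5 FPKM and 18.3 FPKM to 143 FPKM and 170 FPKM (3.05 ± 0.13). IL32, a proinflammatory cytokine, went from 8.44 FPKM and 6.31 FPKM to 81.2 FPKM and 60.5 FPKM (3.10 ± 0.24). PLA2G4C, a phospholipase, went from 4.30 FPKM and 4.90 FPKM to 46.5 FPKM and 43.3 FPKM (3.04 ± 0.16). HSPA6, NEURL3, NUPR1 and TM4SF19 started from very few fragments, as their recovered counts show. HSPA6, an inducible HSP70 chaperone, had 27 and 50 fragments with control treatment and 856 and 543 with both drugs. NEURL3 had 0 and 3 against 330 and 144, and NUPR1, a stress-response nuclear protein, 5 and 7 against 297 and 302. TM4SF19 had 6 and 17 against 272 and 176 fragments and overlaps its antisense transcript. Differences of genes with so few control fragments depend on the pseudocount, although all passed the test.

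Among non-coding genes, RPLP0P2 rose most by the test, from 1.58 FPKM and 2.06 FPKM to 33.3 FPKM and 48.3 FPKM (3.87 ± 0.15). It is a copy of the ribosomal protein gene RPLP0, so its reads may be shared between copies and its value is uncertain. The long non-coding RNA CHILL1 had 1 fragment in each control library and 93 and 133 with both drugs. SMYD3-IT1, annotated inside an intron of SMYD3, had 13 and 14 against 207 and 220 fragments. The 3 non-coding genes with the largest falls were annotated microRNA hairpins with few fragments, MIR3649 (11 and 7 against 0 and 0), MIR4740 (25 and 35 against 6 and 1) and MIR6835 (15 and 20 against 2 and 1). MIR4740 and MIR6835 lie within longer genes, whose reads they may share, and MIR3649 lost its call without the double-treated SLC29A2 library (adjusted p = 0.0563).

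The largest fall was in THBS1, thrombospondin 1, a secreted inhibitor of angiogenesis (chr15:39581079-39599466). Its level was 973 FPKM in mock and 1189 FPKM in SLC29A2 control cells and 57.4 FPKM and 77.8 FPKM with both drugs, a difference of -3.99 ± 0.22 (adjusted p = 0.000247). CCN2, a matricellular protein, went from 123 FPKM and 164 FPKM to 13.97 FPKM and 11.0 FPKM (-3.42 ± 0.23). SFRP1, a secreted antagonist of WNT signalling, went from 357 FPKM and 343 FPKM to 32.1 FPKM and 43.3 FPKM (-3.19 ± 0.16). TGM2, a protein-crosslinking transglutaminase, went from 1111 FPKM and 966 FPKM to 135 FPKM and 164 FPKM (-2.79 ± 0.18). ADM, the vasodilator peptide adrenomedullin, went from 286 FPKM and 318 FPKM to 48.2 FPKM and 37.3 FPKM (-2.80 ± 0.16). SPINK6, a protease inhibitor, had 84 and 108 fragments with control treatment and 7 in each double-treated library.

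Genes of DNA replication and mitosis fell as whole lists. All 30 replication genes and all 27 mitosis genes fell, where 13.4% of all genes tested did. The median difference was -1.40 for replication and -1.60 for mitosis, against 0.17 for all genes. Leaving out any 1 library kept 26 to 29 of the replication genes and all 27 of the mitosis genes below the threshold.

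RRM2, the small subunit of ribonucleotide reductase, which makes deoxyribonucleotides (chr2:10120698-10131419), showed the deepest fall of this group. It stood at 140 FPKM and 136 FPKM with control treatment and at 8.96 FPKM and 7.88 FPKM with both drugs (-3.89 ± 0.13, adjusted p = 6.08e-05). With sorafenib alone it was at 59.4 FPKM and 63.2 FPKM, and with dipyridamole alone at 22.9 FPKM and 19.95 FPKM. Both double-treated values lay below every other library. Its partner RRM1 went from 83.7 FPKM and 73.2 FPKM to 31.5 FPKM and 37.2 FPKM (-1.17 ± 0.14).

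The replicative helicase and its loading factors fell together. MCM7 went from 290 FPKM and 272 FPKM to 57.8 FPKM and 70.1 FPKM (-2.12 ± 0.13, adjusted p = 0.000319). MCM4 fell by 2.33, MCM3 by 2.20 and MCM10, which joins the helicase at origins, by 2.35. UHRF1, which maintains DNA methylation at replication forks, went from 73.8 FPKM and 69.3 FPKM to 12.6 FPKM and 14.2 FPKM. The clamp PCNA went from 128 FPKM and 124 FPKM to 36.1 FPKM and 28.3 FPKM, and the transcription factor E2F1 from 39.6 FPKM and 42.4 FPKM to 10.2 FPKM and 8.70 FPKM. The smallest fall of the list was in RFC2, a clamp-loader subunit, at -0.51 ± 0.17 (adjusted p = 0.0494).

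In mitosis the kinesin KIF20A led, from 77.7 FPKM and 74.7 FPKM to 9.51 FPKM and 12.4 FPKM (-2.70 ± 0.14, adjusted p = 0.000186). ANLN, a scaffold of the cytokinetic ring, went from 197 FPKM and 207 FPKM to 42.2 FPKM and 44.2 FPKM. The kinase AURKA fell by 2.02 and cyclin CCNB1 by 1.97, from 232 FPKM and 226 FPKM to 51.6 FPKM and 64.4 FPKM. TOP2A, the topoisomerase that disentangles chromosomes, went from 384 FPKM and 345 FPKM to 84.4 FPKM and 114 FPKM (-1.88 ± 0.17). KIF20A overlaps CDC23 and BRD8 on the opposite strand. The smallest fall was in CCNB2 (-1.05 ± 0.18, adjusted p = 0.00467). The list median was -0.20 with sorafenib alone and -1.77 with dipyridamole alone, and for replication -0.43 and -1.37. These comparisons share the control libraries with the one for both drugs.

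Because these genes moved together, the 250 bases before their annotated starts were read from RefSeq promoters on GRCh38.p14 and searched on both strands. They are shown for RRM2 (chr2:10122489-10122738, plus strand), whose capitals mark 3 CCAAT boxes, for MCM7 (chr7:100101398-100101647, minus strand), whose capitals mark an E2F-type motif, and for TOP2A (chr17:40417897-40418146, minus strand), whose capitals mark 2 matches to the cell cycle homology region, known as CHR.
RRM2: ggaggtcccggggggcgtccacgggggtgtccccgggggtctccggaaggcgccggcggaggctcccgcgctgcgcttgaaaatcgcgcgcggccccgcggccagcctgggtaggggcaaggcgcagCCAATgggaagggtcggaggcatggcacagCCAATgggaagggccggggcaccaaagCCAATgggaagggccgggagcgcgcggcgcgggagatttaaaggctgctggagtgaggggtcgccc
MCM7: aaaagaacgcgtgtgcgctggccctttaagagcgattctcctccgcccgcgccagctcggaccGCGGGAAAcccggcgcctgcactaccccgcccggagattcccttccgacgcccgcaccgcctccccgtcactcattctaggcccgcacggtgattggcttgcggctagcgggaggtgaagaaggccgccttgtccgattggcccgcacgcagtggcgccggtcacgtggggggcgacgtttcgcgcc
TOP2A: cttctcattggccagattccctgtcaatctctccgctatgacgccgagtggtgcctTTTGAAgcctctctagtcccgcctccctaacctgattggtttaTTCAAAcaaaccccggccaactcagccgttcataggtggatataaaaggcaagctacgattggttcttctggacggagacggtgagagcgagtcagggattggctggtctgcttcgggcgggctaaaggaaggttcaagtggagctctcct

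Each runs 5′ to 3′ in the direction of the gene and ends at the base before the RefSeq start. For RRM2 that start lies inside the gene span given above, so the bases shown are not those before that span. The first CCAAT of RRM2 begins 123 bases before the start and the E2F-type match of MCM7 begins 187 bases before it. An E2F-type motif, TTTCCCGC or TTTGGCGC, was in 12 of the 26 replication promoters the table held, in 1 of 22 mitosis promoters and in 1.96% of all 27305 promoters. A CHR, TTTGAA or TTCGAA, was in 2 of 26 replication promoters, in 12 of 22 mitosis promoters and in 14.6% of all. CCAAT was in 16 of 26 and 17 of 22, against 33.0% of all. These motifs were chosen with the values known, and a match is a description of the letters only.

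Nucleotide synthesis supplies replication with its building blocks. Of 25 purine and pyrimidine genes 16 fell and 3 rose, with a median of -0.52, and the list shares RRM1 and RRM2 with replication. CTPS1, which makes CTP, went from 303 FPKM and 336 FPKM to 101 FPKM and 108 FPKM (-1.60 ± 0.12, adjusted p = 0.000407). TYMS, thymidylate synthase, went from 17.0 FPKM and 16.5 FPKM to 6.18 FPKM and 5.25 FPKM. PRPS1, which makes the ribose-phosphate donor, fell by 1.28 ± 0.18. IMPDH1, the first enzyme of guanine nucleotide synthesis, went the other way, from 59.3 FPKM and 51.7 FPKM to 103 FPKM and 120 FPKM (0.99 ± 0.16). The number that fell was 10 without either the control-treated mock or the control-treated SLC29A2 library.

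Transport and salvage of nucleosides, which dipyridamole is known to affect, showed 5 falls and 1 rise among 15 genes. Over all genes 13.4% fell and 25.6% rose, shares that also apply to the phosphodiesterase and cAMP lists below. SLC29A1, which encodes the main equilibrative transporter ENT1, went from 109 FPKM and 127 FPKM to 38.7 FPKM and 42.0 FPKM (-1.52 ± 0.19, adjusted p = 0.00137). NT5E, the cell-surface enzyme CD73 that makes adenosine, went from 67.0 FPKM and 77.3 FPKM to 24.5 FPKM and 18.7 FPKM (-1.71 ± 0.21). The adenosine receptor gene ADORA1 fell by 1.05 ± 0.16. CDA, cytidine deaminase, went from 51.4 FPKM and 35.9 FPKM to 100 FPKM and 114 FPKM, a rise of 1.29 ± 0.27 that missed the threshold without the control-treated or the double-treated SLC29A2 library (adjusted p = 0.0550 and 0.0667). Among 12 phosphodiesterase genes, 3 fell and 2 rose, and the rises numbered 1 without any 1 of the 4 libraries compared. PDE2A went from 6.03 FPKM and 4.71 FPKM to 14.9 FPKM and 9.78 FPKM, and PDE4A from 1.90 FPKM and 2.56 FPKM to 0.75 FPKM and 0.54 FPKM, with an adjusted p of 0.118 and 0.0692 without the control-treated or the double-treated SLC29A2 library. PDE4A overlaps the far more abundant CDC37 on the opposite strand, so its reads may not be its own. The 3 falls became 0 without the control-treated SLC29A2 library and 1 without the double-treated SLC29A2 library. Of 15 cAMP and CREB target genes 5 rose and 2 fell, and the rises were 3 without the double-treated mock or the control-treated SLC29A2 library, and the falls 1 without any 1 of the 4 libraries compared or either library given sorafenib alone.

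G1 regulators were mixed: 4 of 16 rose, where 25.6% of all genes did, and 5 fell, where 13.4% did. Cyclin gene CCND1 went from 491 FPKM and 458 FPKM to 207 FPKM and 216 FPKM (-1.16 ± 0.14). CDKN2C, an inhibitor of CDK4 and CDK6, fell by 2.09 ± 0.17, while CCND2 rose from 1.15 FPKM and 0.26 FPKM to 7.81 FPKM and 3.65 FPKM and CDKN1C, another inhibitor, by 1.62 ± 0.26. The rises numbered 2 without the control-treated mock library.

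**Figure D2:**
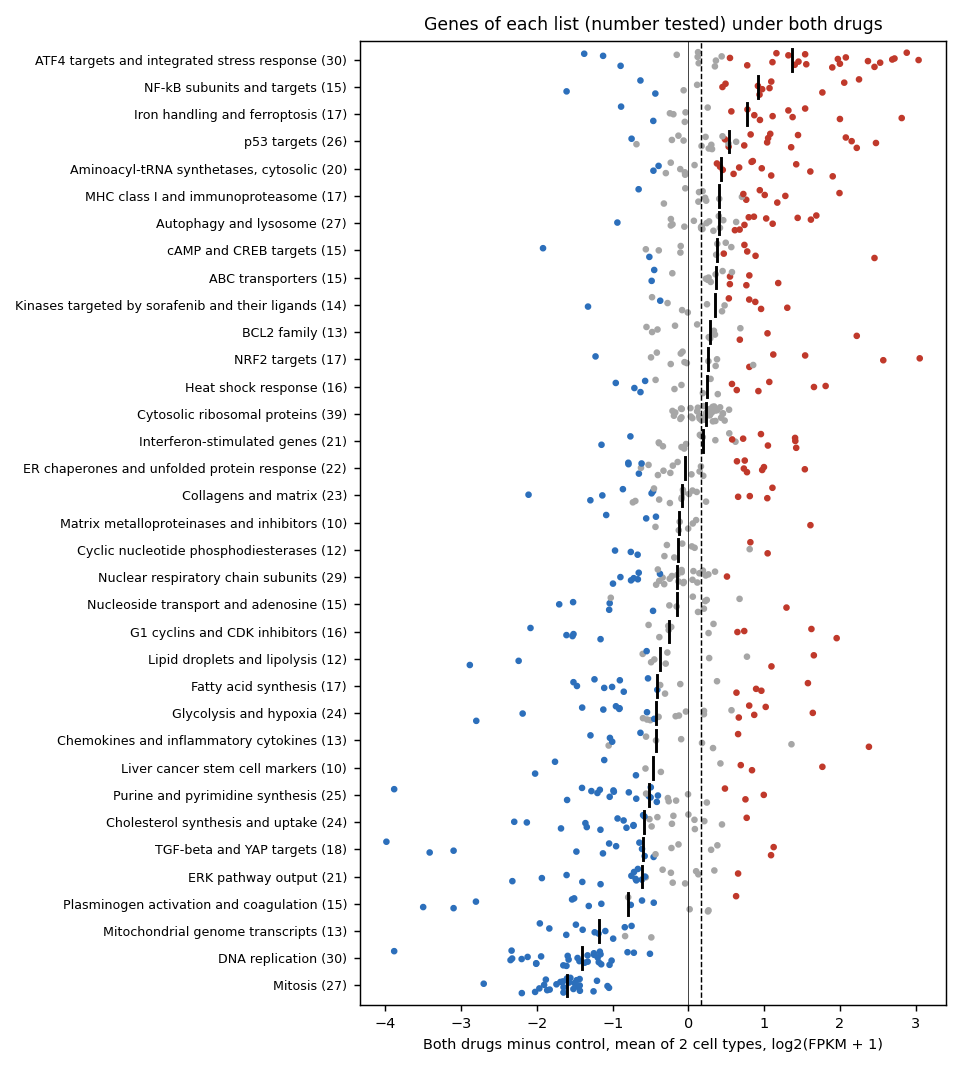
Each row is 1 of 35 gene lists with the number of its genes tested; points are genes, placed by the difference between both drugs and control in log2(FPKM + 1), red where the gene rose, blue where it fell and grey where it did not pass the test. The black bar is the list's median and the dashed line the median of all genes, 0.17; mitosis and DNA replication lie at the bottom with blue points only, and the ATF4 targets at the top.

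The integrated stress response was the list with the highest median, 1.36. In this pathway phosphorylation of eIF2α slows translation and favours synthesis of the transcription factor ATF4, which induces amino acid and stress genes. Of 30 genes tested 20 rose and 3 fell, where 25.6% and 13.4% of all genes did. TRIB3, a pseudokinase, went from 39.0 FPKM and 29.1 FPKM to 232 FPKM and 279 FPKM (2.88 ± 0.28, adjusted p = 0.000720). PPP1R15A, which recruits the eIF2α phosphatase, went from 72.4 FPKM and 85.4 FPKM to 535 FPKM and 513 FPKM (2.72 ± 0.18). PCK2, the mitochondrial PEP carboxykinase, went from 20.4 FPKM and 16.5 FPKM to 104 FPKM and 147 FPKM (2.69 ± 0.25). DDIT3, the transcription factor CHOP, went from 7.78 FPKM and 10.2 FPKM to 68.5 FPKM and 46.2 FPKM (2.53 ± 0.22). All double-treated values of these 4 genes lay above all control values. They were chosen with their values known, so this separation adds no support.

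The transcript of ATF4 itself, which is regulated mainly in translation, differed by 0.35 ± 0.15 and did not pass the test (adjusted p = 0.101). The 3 genes that fell were the amino acid transporter SLC7A5, from 276 FPKM and 314 FPKM to 89.1 FPKM and 143 FPKM, SLC38A2, which also carries amino acids (-1.13 ± 0.23), and the transcription factor ATF5 (-0.90 ± 0.16). The list median was 0.61 with sorafenib alone and 0.93 with dipyridamole alone. Cytosolic aminoacyl-tRNA synthetases, which charge tRNAs and include known ATF4 targets, had 12 rises and 2 falls among 20 genes. AARS1 went from 236 FPKM and 199 FPKM to 687 FPKM and 962 FPKM (1.90 ± 0.22, adjusted p = 0.00113), and GARS1 and SARS1 rose by 1.61 and 1.42. The 2 that fell were HARS1 (-0.46 ± 0.12) and QARS1 (-0.39), but the falls numbered 0 without either control-treated library or the double-treated mock library, 1 without the double-treated SLC29A2 library or either library given sorafenib alone, and 0 with the 4 libraries alone. The rises numbered 7 both without the control-treated SLC29A2 library and with size factors. The ATF4-type composite motif TGATGNAA was found in 4 of 28 promoters of the ATF4 list, in 2 of 16 of the synthetases and in 3.19% of all.

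**Figure D3:**
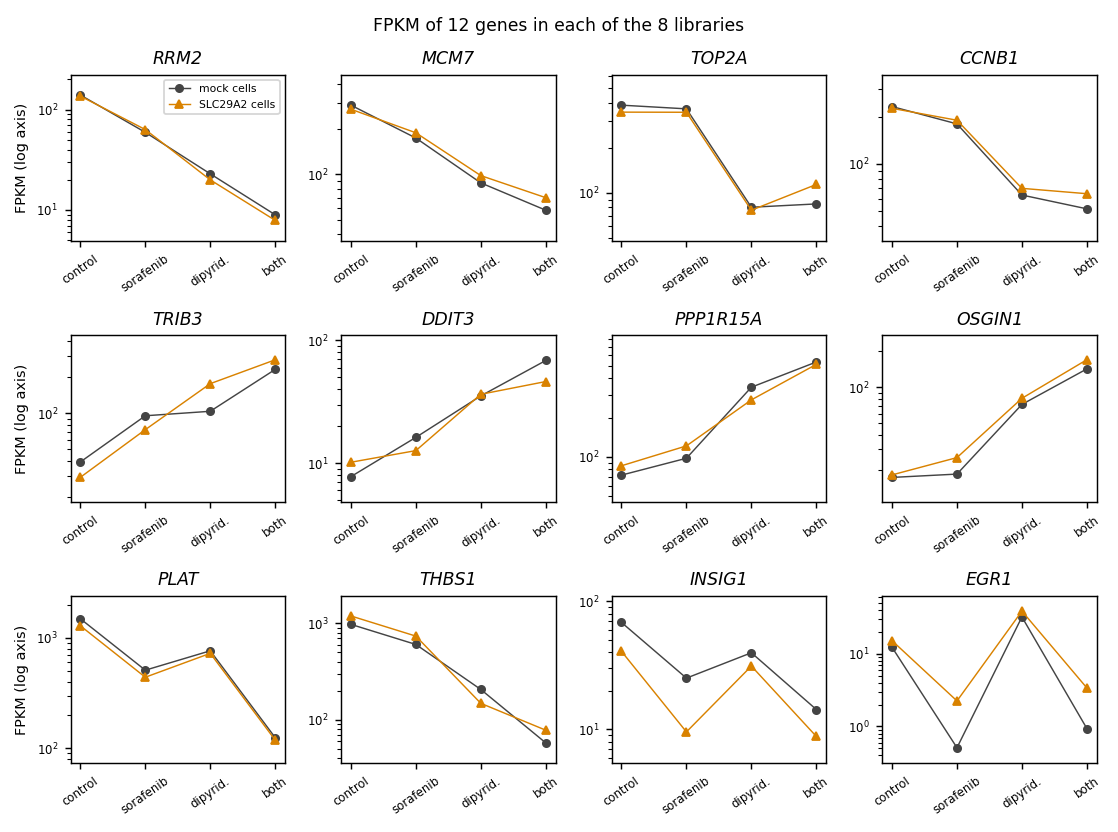
FPKM of 12 genes, on log axes that differ between panels, in the 8 libraries ordered by treatment, with circles for mock cells and triangles for SLC29A2 cells; every point is 1 library and lines only join the libraries of a line. RRM2 is lowest with both drugs in both lines, TOP2A is about as low with dipyridamole alone, and EGR1 is low in the libraries that received sorafenib.

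Of 26 p53 target genes 13 rose and 1, SERTAD1, fell, a fall lost without the double-treated mock or the control-treated SLC29A2 library. GADD45A, a growth arrest and stress gene, went from 346 FPKM and 402 FPKM to 2400 FPKM and 1802 FPKM (2.48 ± 0.19, adjusted p = 0.000428). BBC3, the proapoptotic protein PUMA, went from 14.5 FPKM and 13.1 FPKM to 75.3 FPKM and 61.2 FPKM (2.22 ± 0.15). PHLDA3, an inhibitor of AKT, went from 104 FPKM and 100.05 FPKM to 388 FPKM and 540 FPKM. Of the best known targets, CDKN1A, an inhibitor of CDKs, rose by 0.74 ± 0.17 (adjusted p = 0.0134), and MDM2, which marks p53 for degradation, was at 0.63 ± 0.24 and did not pass the test (adjusted p = 0.0758). In the BCL2 family 3 of 13 genes rose, where 25.6% of all genes did: BBC3, the antiapoptotic BCL2L1, from 48.6 FPKM and 44.1 FPKM to 100 FPKM and 93.1 FPKM, and BAD, a proapoptotic member. BAD overlaps the more abundant GPR137 on the opposite strand, whose reads it may share. BAD lost its call with size factors, and without the control-treated SLC29A2, the double-treated SLC29A2 or either library given dipyridamole alone (adjusted p = 0.0629 to 0.247). With size factors 2 genes of the family rose and 2 fell.

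Among transcripts taken as output of the ERK pathway, which lies downstream of RAF, 12 of 21 fell and 1, the cytokine gene LIF, rose. Activity of the pathway was not measured. The rise of LIF was lost without either control-treated library, without the double-treated mock library and with size factors. EGR1, an immediate early transcription factor, went from 12.2 FPKM and 15.1 FPKM to 0.94 FPKM and 3.38 FPKM (-2.32 ± 0.27, adjusted p = 0.00120). FOS, another immediate early gene, went from 7.06 FPKM and 7.34 FPKM to 1.34 FPKM and 0.97 FPKM (-1.94 ± 0.25). DUSP6, the phosphatase that feeds back on ERK, went from 11.6 FPKM and 11.5 FPKM to 3.92 FPKM and 3.59 FPKM (-1.40 ± 0.16). The list median was -0.53 with sorafenib alone and 0.43 with dipyridamole alone, and -0.61 with both. The falls numbered 7 without the control-treated mock library and 7 without the double-treated SLC29A2 library.

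The 250 bases before the start of EGR1 (chr5:138465229-138465478, plus strand) are shown because they hold 2 CArG boxes, in capitals, the kind of site that serum response factor is known to bind when ERK signalling induces immediate early genes. They begin 105 and 83 bases before the start. EGR1 was the 1 gene of 14 promoters of the list with such a match, which 1.14% of all promoters had.
EGR1: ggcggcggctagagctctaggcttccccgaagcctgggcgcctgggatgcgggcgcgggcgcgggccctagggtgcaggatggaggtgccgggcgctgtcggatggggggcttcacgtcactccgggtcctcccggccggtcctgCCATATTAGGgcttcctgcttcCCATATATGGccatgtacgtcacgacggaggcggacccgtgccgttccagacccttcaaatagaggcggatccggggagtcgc

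Plasminogen activation and coagulation genes fell in 10 of 15 cases, with a median of -0.80. PLAT, tissue plasminogen activator, went from 1492 FPKM and 1288 FPKM to 125 FPKM and 118 FPKM (-3.50 ± 0.14, adjusted p = 0.000102). F3, tissue factor, which starts coagulation, went from 129 FPKM and 132 FPKM to 19.98 FPKM and 10.2 FPKM (-3.10 ± 0.32). SERPINB2, an inhibitor of plasminogen activators, went from 40.2 FPKM and 68.9 FPKM to 5.89 FPKM and 7.55 FPKM (-2.81 ± 0.20). Its single-drug values lay apart from each other, at 5.76 FPKM and 12.5 FPKM with sorafenib and at 161 FPKM and 190 FPKM with dipyridamole. THBD, the thrombin receptor thrombomodulin, was the 1 gene of the list that rose (0.63), and the rise was lost without either control-treated library or the double-treated mock library.

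Among 18 TGF-beta and YAP target genes 11 fell and 2 rose, and THBS1, CCN2 and F3 led the falls. CRIM1 fell by 1.48 and CCN1, a relative of CCN2, by 1.13. ANKRD1, a usual YAP target, and SMAD7, an inhibitor of TGF-beta signalling, rose by 1.09 and 1.13, and the rises numbered 1 without either the control-treated or the double-treated mock library. The falls numbered 6 without the control-treated mock library and 7 without the control-treated SLC29A2 library. Collagen and matrix genes went both ways, with 4 rises and 6 falls among 23, where 25.6% of all genes rose and 13.4% fell. COL8A1 went from 13.1 FPKM and 16.7 FPKM to 2.61 FPKM and 2.72 FPKM (-2.11 ± 0.20). The falls numbered 3, 1 and 2 without the control-treated mock, control-treated SLC29A2 and double-treated SLC29A2 library, and the rises 2 without the first. Of 10 metalloproteinases and inhibitors, MMP19 rose (1.61 ± 0.23) and 3 inhibitors fell: TIMP1 by 0.56, TIMP2 by 0.43 and TIMP3 by 1.09. The falls numbered 0 without the control-treated mock library and 1 without the control-treated or the double-treated SLC29A2 library, and TIMP2 also missed the threshold without the double-treated mock library (adjusted p = 0.0694) or either library given sorafenib alone.

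Genes of NF-kB, the transcription factor family of inflammation, rose in 10 of 15 cases and fell in 3. RELB, a subunit of the noncanonical pathway, went from 20.2 FPKM and 17.5 FPKM to 74.8 FPKM and 88.9 FPKM (2.06 ± 0.20, adjusted p = 0.000665). TRAF1, a signalling adaptor, went from 0.68 FPKM and 1.09 FPKM to 7.38 FPKM and 8.48 FPKM (2.25 ± 0.18). ICAM1, an adhesion molecule, went from 15.5 FPKM and 19.1 FPKM to 61.4 FPKM and 60.5 FPKM (1.77 ± 0.16). IER3, which the ERK list also holds, fell by 1.61 ± 0.27. Without the control-treated mock library 6 genes rose and 1 fell, and 1 fell without the control-treated or the double-treated SLC29A2 library.

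Of 13 chemokine and cytokine genes tested 2 rose and 4 fell, and 1 rose without either control-treated library or the double-treated mock library. CSF1, the macrophage growth factor, went from 7.80 FPKM and 8.65 FPKM to 49.8 FPKM and 44.5 FPKM (2.38 ± 0.13). IL6 fell by 1.29 ± 0.38 (adjusted p = 0.0335) and CXCL8 by 1.01 ± 0.30 (adjusted p = 0.0363), but neither passed without the double-treated SLC29A2 library (adjusted p = 0.190 and 0.217) or the control-treated SLC29A2 library (0.156 and 0.205), nor IL6 without the double-treated mock library (0.0606). The 4 falls became 1 without either of these SLC29A2 libraries.

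Interferon-stimulated genes rose in 7 of 21 cases and fell in 2, where 25.6% and 13.4% of all genes did. IRF7, a transcription factor of the pathway, went from 10.0 FPKM and 10.6 FPKM to 29.6 FPKM and 28.5 FPKM (1.41 ± 0.21), whereas IFIT1 fell by 1.15 ± 0.18. The rises numbered 4 without the control-treated mock library, and the falls 1 without any 1 of the 4 libraries compared. IFIT1 overlaps the more abundant LIPA on the opposite strand. Of 17 MHC class I and immunoproteasome genes 7 rose and 1 fell. PSMB9, an immunoproteasome subunit, went from 7.96 FPKM and 5.58 FPKM to 27.1 FPKM and 32.3 FPKM (1.99 ± 0.25). It overlaps TAP1 and PSMB8 on the opposite strand, which were more abundant, so reads may be shared. The fall was in TAP2 (-0.66) and was lost without either control-treated library, the double-treated SLC29A2 library or either library given dipyridamole alone.

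Transcripts of lipid synthesis fell more often than they rose. Of 24 cholesterol genes 13 fell and 1, PMVK, rose, with a median of -0.59. The rise was lost without either control-treated library. INSIG1, which retains SREBP in the ER and is itself induced by it, went from 68.4 FPKM and 40.7 FPKM to 14.3 FPKM and 8.82 FPKM (-2.13 ± 0.22, adjusted p = 0.000830). IDI1, which isomerises isopentenyl diphosphate, went from 30.4 FPKM and 23.0 FPKM to 11.2 FPKM and 8.39 FPKM (-1.36 ± 0.15). Of 17 fatty acid genes 9 fell and 4 rose. FASN, fatty acid synthase, went from 1690 FPKM and 1097 FPKM to 403 FPKM and 560 FPKM (-1.52 ± 0.29), with an adjusted p of 0.0542 without the double-treated mock library. The falls numbered 5 without the control-treated and 4 without the double-treated mock library, and the rises 2 without the former.

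In lipid storage 2 of 12 genes rose and 3 fell, where 25.6% and 13.4% of all genes did. ANGPTL4, an inhibitor of lipoprotein lipase, went from 79.2 FPKM and 77.6 FPKM to 10.1 FPKM and 9.39 FPKM (-2.89 ± 0.13), and with sorafenib alone it was at 15.5 FPKM and 17.3 FPKM. G0S2, an inhibitor of triglyceride lipase, fell by 2.24 ± 0.30. PLIN2, the coat protein of lipid droplets, went from 26.6 FPKM and 25.1 FPKM to 81.4 FPKM and 85.8 FPKM (1.66 ± 0.13).

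Glycolysis and hypoxia genes went both ways, with 9 falls and 5 rises among 24, where 13.4% of all genes fell and 25.6% rose. LDHA, lactate dehydrogenase, went from 1437 FPKM and 1303 FPKM to 292 FPKM and 307 FPKM (-2.19 ± 0.15, adjusted p = 0.000321). SLC2A1, the glucose transporter GLUT1, went from 314 FPKM and 309 FPKM to 107 FPKM and 128 FPKM (-1.40 ± 0.15). NDRG1 went from 35.4 FPKM and 25.5 FPKM to 93.5 FPKM and 98.3 FPKM (1.64 ± 0.22). The falls numbered 5 without the control-treated or the double-treated mock library, and the rises 3 without either control-treated library.

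Transcripts of the mitochondrial genome fell in 11 of 13 cases, with a median of -1.19. MT-CO2, a cytochrome oxidase subunit, went from 5869 FPKM and 6976 FPKM to 2037 FPKM and 2146 FPKM (-1.61 ± 0.28, adjusted p = 0.00519). MT-ND6 went from 113 FPKM and 166 FPKM to 31.6 FPKM and 37.4 FPKM (-1.96 ± 0.22). The mitochondrial share of all fragments was 3.71% and 4.54% with control treatment and 1.88% and 2.25% with both drugs. The falls numbered 6 and 4 without the control-treated mock or SLC29A2 library and 5 and 4 without the double-treated ones, so the call is sensitive to single libraries. Nuclear-encoded respiratory chain subunits had 7 falls and 1 rise among 29, with a median of -0.15. ATP5MC1, an ATP synthase subunit, fell by 1.00 ± 0.16. The falls numbered 4, 3 and 4 without the control-treated mock, control-treated SLC29A2 and double-treated SLC29A2 library, and the 1 rise, in NDUFB5, was lost without any 1 of the 4 libraries compared. The median was -0.46 with sorafenib alone and -0.03 with dipyridamole alone for the mitochondrial list.

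Heat shock response genes went both ways: 6 of 16 rose and 4 fell, where 25.6% and 13.4% of all genes did. HSPA1A, an inducible HSP70, went from 40.5 FPKM and 32.4 FPKM to 111 FPKM and 122 FPKM (1.66 ± 0.19), and HSPA1B from 30.4 FPKM and 29.9 FPKM to 96.6 FPKM and 121 FPKM (1.81 ± 0.15). These 2 genes are nearly identical copies, so how reads were split between them is uncertain. The co-chaperone DNAJB1 went from 493 FPKM and 388 FPKM to 748 FPKM and 921 FPKM (0.92 ± 0.22). The constitutive HSPA8 went from 1406 FPKM and 1538 FPKM to 646 FPKM and 883 FPKM (-0.96 ± 0.19), with an adjusted p of 0.0723 and 0.0534 without the control-treated or the double-treated mock library. The rises numbered 2 without the control-treated or the double-treated SLC29A2 library and 3, against 4 falls, with size factors, and the falls 0 and 2 without the control-treated mock and SLC29A2 libraries.

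The 250 bases before the start of HSPA1B (chr6:31827488-31827737, plus strand) are shown because they hold a heat shock element of the form GAANNTTC, in capitals, beginning 105 bases before the start. That form was in 6 of 15 heat shock promoters and in 5.85% of all.
HSPA1B: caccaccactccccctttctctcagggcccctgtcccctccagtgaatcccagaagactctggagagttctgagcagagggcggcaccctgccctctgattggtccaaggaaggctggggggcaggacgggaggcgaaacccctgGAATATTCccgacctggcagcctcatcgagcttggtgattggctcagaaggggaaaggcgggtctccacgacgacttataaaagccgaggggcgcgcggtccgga

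ER stress genes had 7 rises and 4 falls among 22, where 25.6% of all genes rose and 13.4% fell. HSPA5, the ER chaperone BiP, went from 415 FPKM and 482 FPKM to 845 FPKM and 944 FPKM (1.00 ± 0.15), and ERN1, the sensor IRE1, from 14.8 FPKM and 22.3 FPKM to 54.2 FPKM and 55.0 FPKM (1.54 ± 0.22). SDF2L1 and PDIA4, which also help proteins fold in the ER, each fell by 0.79. With size factors 6 rose and 7 fell. The rises numbered 2 without either mock library and 4 without the double-treated SLC29A2 library, and the falls 1 without the control-treated SLC29A2 library.

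Of 17 NRF2 targets 5 rose and 1 fell, where 25.6% and 13.4% of all genes did. HMOX1, haem oxygenase, went from 27.7 FPKM and 22.5 FPKM to 120 FPKM and 196 FPKM (2.57 ± 0.26, adjusted p = 0.000783), and PRDX1, a peroxidase, fell by 1.23 ± 0.19. The subunits of the rate-limiting enzyme of glutathione synthesis, GCLM and GCLC, were at -0.05 and -0.02 and did not pass the test. The rises numbered 3 without either control-treated library or the double-treated SLC29A2 library. Iron and ferroptosis genes rose in 10 of 17 cases and fell in 2. ERFE, the hormone erythroferrone, went from 10.8 FPKM and 9.15 FPKM to 76.1 FPKM and 75.9 FPKM (2.82 ± 0.13, adjusted p = 0.000156). The ferritin genes FTH1 and FTL rose by 1.38 ± 0.15 and 1.11 ± 0.23, SLC7A11, the cystine importer, rose by 1.54 ± 0.20, and TFRC, the transferrin receptor, fell by 0.89 ± 0.22. Without the double-treated mock or the control-treated SLC29A2 library the rises numbered 6 and the falls 0, so the fall of TFRC was lost. The falls numbered 1 without the control-treated mock library, the double-treated SLC29A2 library or either library given sorafenib alone.

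Autophagy and lysosome genes rose in 10 of 27 cases and fell in 1. MAP1LC3B, which coats the autophagosome, went from 42.1 FPKM and 39.1 FPKM to 135 FPKM and 119 FPKM (1.62 ± 0.12, adjusted p = 0.000386). SQSTM1, the cargo receptor p62, went from 206 FPKM and 228 FPKM to 568 FPKM and 612 FPKM (1.44 ± 0.13). WIPI1 rose by 1.69 ± 0.15. MAP1LC3B and SQSTM1 each overlap genes on the other strand, as do CRIM1, MMP19, FGFR1, TGM2, TYMS and IL6. GLA, a lysosomal galactosidase, was the gene that fell (-0.94 ± 0.25), which was lost without the control-treated or the double-treated SLC29A2 library.

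Cytosolic ribosomal protein genes served as a contrast. By limma 0 of 39 passed the adjusted threshold, and 0 had an unadjusted p under 0.05, where 6925 of the 14045 genes did. Their differences ran from -0.21 to 0.54 and their median was 0.23, or 0.05 with size factors. Not passing does not show that they were unchanged, since differences between the lines enter the spread. Kinases that sorafenib targets and their ligands had 5 rises and 2 falls among 14. Over all genes 25.6% rose and 13.4% fell. FGFR1 went from 86.9 FPKM and 101 FPKM to 248 FPKM and 218 FPKM (1.31 ± 0.14), and KIT from 4.29 FPKM and 5.15 FPKM to 1.56 FPKM and 1.03 FPKM (-1.33 ± 0.25). With size factors 3 rose and 4 fell. The rises numbered 2 without the control-treated mock library and 3 without the control-treated or double-treated SLC29A2 library, and the falls 1 without either control-treated library, the double-treated SLC29A2 library or either library given sorafenib alone.

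ABC transporters, which include drug exporters, had 5 rises and 2 falls among 15, where 25.6% and 13.4% of all genes did so. ABCA3, a phospholipid transporter, rose by 1.19 ± 0.23. The rises numbered 1, 2 and 2 without the control-treated mock, double-treated mock and control-treated SLC29A2 library, and 2 with size factors, and the falls 0 without either control-treated library or the double-treated SLC29A2 library and 1 without any other library. Of 10 genes used as liver cancer stem cell markers 3 rose and 4 fell. ANPEP, the aminopeptidase CD13, went from 2123 FPKM and 1542 FPKM to 455 FPKM and 434 FPKM (-2.02 ± 0.17, adjusted p = 0.000494), and SOX9 fell by 1.76 ± 0.17. The rises numbered 1 without the control-treated mock, double-treated mock or control-treated SLC29A2 library. Keratin genes KRT8 and KRT18, which carry the epithelial marker sum, fell by 1.38 ± 0.25 and 2.36 ± 0.15.

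Whether both drugs together did more or less than the sum of the single effects was asked with the sorafenib by dipyridamole interaction. It passed the threshold for 13 of 14045 genes (0.0926%), 5 above the sum (0.0356%) and 8 below it (0.057%), while 1865 genes had an unadjusted p under 0.05. Their adjusted p lay between 0.0460 and 0.0496, and 0 passed in each of the 8 fits that left out 1 library or with a pseudocount of 0.1 or 0.5, so single genes are given as values.

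ERFE was above the sum: it was at 13.1 FPKM and 12.2 FPKM with sorafenib, at 15.4 FPKM and 16.8 FPKM with dipyridamole and at 76.1 FPKM and 75.9 FPKM with both (interaction 1.86 ± 0.19, adjusted p = 0.0460). HSPA1B stood at 19.2 FPKM and 26.8 FPKM with sorafenib and at 31.0 FPKM and 38.7 FPKM with dipyridamole, below its double-treated values (2.01 ± 0.21). ATP6V1FNB was at 0.44 FPKM and 0.69 FPKM with sorafenib and at 1.82 FPKM and 1.63 FPKM with dipyridamole, against 16.5 FPKM and 13.4 FPKM with both (2.87 ± 0.29). KCP on its other strand had an interaction of 2.92 ± 0.34 that did not pass (adjusted p = 0.0541). The remaining 2 were AL499627.1, a long non-coding RNA with 3 and 0 fragments in the control libraries and 346 and 275 with both drugs, and MIR8078, which lies within ROCK1P1 on the other strand and had no more than 14 fragments in any of the 4 libraries.

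ADM was below the sum: it was at 225 FPKM and 246 FPKM with sorafenib, at 273 FPKM and 237 FPKM with dipyridamole and at 48.2 FPKM and 37.3 FPKM with both (-2.20 ± 0.23, adjusted p = 0.0460). RGMB, a BMP co-receptor, and its overlapping antisense transcript RGMB-AS1, whose reads cannot be told apart, followed another course. RGMB was at 99.1 FPKM and 88.1 FPKM with control treatment, at 177 FPKM and 158 FPKM with dipyridamole and at 47.2 FPKM and 34.2 FPKM with both drugs (-1.96 ± 0.19). PLXNA2, a semaphorin receptor, was at 19.5 FPKM and 31.0 FPKM with sorafenib and 23.9 FPKM and 27.9 FPKM with dipyridamole, but at 10.4 FPKM and 14.6 FPKM with both, close to its control values of 7.10 FPKM and 12.1 FPKM (-2.32 ± 0.22). SNORD46, a small nucleolar RNA, had no more than 35 fragments in the 4 libraries. RRM2 and KIF20A, by contrast, had interactions of -0.09 ± 0.18 and 0.02 ± 0.20, which did not pass.

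**Figure D4:**
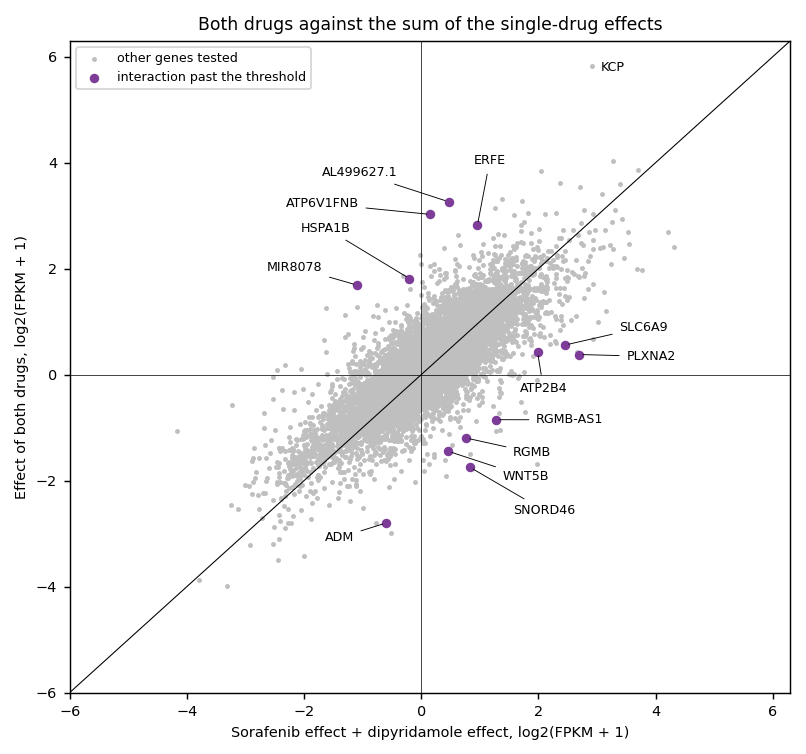
The horizontal axis is the sum of the sorafenib and dipyridamole effects and the vertical axis the effect of both drugs together, in log2(FPKM + 1), for the 14045 genes; both axes use the same control libraries, which ties them. Purple points are the 13 genes whose interaction passed the threshold, 5 above and 8 below the line of equality, and KCP, at the top, did not pass.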

How the data were processed

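Total RNA was sequenced in 8 SK-Hep1 libraries, 1 per condition, and the values were used as the authors deposited them, as FPKM per gene in 1 table a library. Per the submitters' processing notes TopHat2 2.0, HTSeq 0.6.1 and edgeR were used with GRCh38.p12; which tool made which step is not given in the sources used here. No count table was used. Gene length was taken as the rounded mean of the GENCODE 29 transcripts. With it, 93.6% of the deposited FPKM values above 0 came out as whole fragments (tolerance 0.01). This gave totals of 14.1 to 16.7 M per library and 0.0300 to 0.0355 FPKM for 1 fragment in a gene of 2 kb. Fragment numbers in the text are these recovered values, without molecular identifiers. Of 58302 genes 58039 matched GENCODE 29, which gave coordinates.

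Genes averaging 1 FPKM or more across the 4 libraries compared (14045) were taken to log2(FPKM + 1) and fitted with limma 3.58.1 (R 4.3.3) to all 8 libraries, with cell line and 4 treatments as factors and a variance trend, leaving 3 residual degrees of freedom. The interaction is both minus sorafenib minus dipyridamole plus control in the same fit. Adjusted p-values are Benjamini-Hochberg over all genes and the threshold was 0.05. The script was tested on simulated data. The genes named are the 12 protein-coding and 3 non-coding genes with the largest differences in each direction past the threshold and at least 2-fold in both lines, up to 4 genes per list by size, the 5 largest interactions in each direction and SLC29A2; other list genes are given to describe a list. The members and the 35 gene lists were chosen with earlier results of these data known. Alternatives were other pseudocounts, filters, scalings, designs, a voom fit on recovered fragments and leaving out each library. Results for some items are not reported here.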

Additional observations from a re-analysis of the deposited data

Results flagged for a closer look

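For 10 genes the effect of sorafenib with dipyridamole differed from its effect without it by the interaction term of limma, and none of the 10 kept the call in any of the 8 fits that left out 1 library. These 10 are the 5 largest in each direction among the 13 genes that passed. The interaction was 2.87 for ATP6V1FNB, 2.80 for AL499627.1, 2.78 for MIR8078, 2.01 for HSPA1B and 1.86 for ERFE, each above the sum of the single effects. It was -2.58 for SNORD46, -2.32 for PLXNA2, -2.20 for ADM, -2.13 for RGMB-AS1 and -1.96 for RGMB, each below the sum.

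For 4 gene lists the median response had opposite signs in the lines, and these differences were not tested. The median response of chemokines and inflammatory cytokines was 0.27 in mock cells and -0.83 in SLC29A2 cells, a gap of -1.10. Cyclic nucleotide phosphodiesterases were at 0.13 and -0.34, a gap of -0.47. Nucleoside transport and adenosine genes were at 0.05 and -0.35, a gap of -0.40. ER chaperones and unfolded protein response genes were at 0.10 and -0.22, a gap of -0.32. The median of all genes was itself 0.26 in mock cells and 0.08 in SLC29A2 cells.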

How the results depend on the processing

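The 5476 genes that differed between both drugs and control became 3024 to 5230 when 1 library was left out, where the lone library of an arm is assumed to vary like the others, and 8430 without both dipyridamole-treated libraries of mock cells, an alternative chosen after seeing the data that leaves 1 residual degree of freedom. With the other alternatives it ran from 4087 (the 4 libraries alone with cell line as a block) to 5821 (voom), and with size factors 4498 genes kept call and direction. The labels give no replicate numbers, and the fit with cell line as a block is the paired one. The 13 interaction genes became 0 with a pseudocount of 0.1 or 0.5, without the filter and without the variance trend (unadjusted p under 0.05 for 1796, 1844, 2856 and 1825 genes), and 0 in each of the 8 fits with 1 library left out. They became 24 with size factors, 21 without the cell line factor, 25 with voom and 3315 without both dipyridamole-treated mock libraries. The cause was not tested. The SLC29A2 difference ran from -0.13 (without the control-treated SLC29A2 library, adjusted p = 0.734) to 0.58 (without the control-treated mock library, adjusted p = 0.159) when 1 library was left out. Of 148 named genes that passed the test 120 kept their call in all 8 fits that left out 1 library and 28 lost it at least once. With size factors the falls rose from 3 to 7 in lipid storage, from 5 to 8 among G1 regulators, from 2 to 5 among interferon-stimulated genes, from 2 to 4 among cAMP targets and from 1 to 3 among NRF2 targets, while no list's median changed sign. At these depths genes near 1 FPKM rest on few fragments.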

Other observations

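Protein-coding genes that averaged 20 FPKM or more in either treatment were ranked by how far the response in SLC29A2 cells lay from that in mock cells, after their values were seen and without a test, since each line has 1 library per treatment. At the lower end RSRP1 went from 68.2 FPKM to 102 FPKM in mock cells and from 83.5 FPKM to 24.6 FPKM in SLC29A2 cells. The splicing kinase CLK1 went from 49.9 FPKM to 84.0 FPKM and from 58.4 FPKM to 25.9 FPKM, and the splicing factor SRSF5 from 144 FPKM to 181 FPKM and from 162 FPKM to 63.5 FPKM. OGT, the enzyme that adds O-GlcNAc to proteins, went from 220 FPKM to 680 FPKM and from 283 FPKM to 264 FPKM. At the upper end TK1, thymidine kinase, went from 243 FPKM to 70.8 FPKM in mock cells and from 192 FPKM to 157 FPKM in SLC29A2 cells, and PHGDH, a serine synthesis enzyme, from 33.3 FPKM to 83.3 FPKM and from 18.8 FPKM to 123 FPKM.

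Over all genes tested, 1139 had responses at least 2-fold apart between the lines, of which 1018 were lower in SLC29A2 cells, and 22 changed at least 2-fold in opposite directions. Non-coding genes took 2.68% of fragments in the double-treated mock library and 1.79% in the double-treated SLC29A2 library. The control libraries were at 1.6% to 1.86%. With dipyridamole alone the share was 2.48% in mock and 1.93% in SLC29A2 cells, and with sorafenib alone 1.67% and 1.81%. The part of the double-treated mock library in these gaps was not tested.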
